A study of Mus musculus with 6 samples.

Results

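The genes of the pathway from leukemia inhibitory factor (LIF) to STAT3 were examined for H3K27ac, the acetylation of histone H3 at lysine 27, before and after removal of OCT4. The 7 members are the receptor genes Lifr and Il6st, the signal transducer genes Jak1, Jak2 and Stat3, and the feedback genes Socs3 and Pim1. A deposited H3K27ac peak was counted as belonging to a gene if it overlapped the gene body or the 10 kb on either side (GENCODE vM21 on GRCm38). By this rule 6 of the 7 genes had a peak, and they held 17 of the 31131 peaks in the files: 7 at Socs3, 3 at Lifr, 3 at Stat3, 2 at Pim1, 1 at Il6st and 1 at Jak2. Jak1 had 0. All 17 peaks passed the background threshold of 0.5 RPKM (reads normalized to the length of the peak and to all reads of the library) in either condition, as did 26457 peaks in all.

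Chromatin immunoprecipitation sequencing (ChIP-seq) was carried out in O4AID ESCs, mouse embryonic stem cells of strain 129SV whose endogenous Oct4 is deleted (Oct4-/-). Both groups carry TetOFF Oct4, held silent with 1 μg/ml doxycycline, and 2 transgenes under the constitutive CAG promoter, namely Oct4AID, an OCT4 with an auxin-inducible degron, and Tir1, the plant F-box protein that targets the degron. The 3 uninduced libraries come from untreated cells and the 3 IAA libraries from cells given 500 μM of indole-3-acetic acid (IAA), an auxin, for 1.5 h. Both groups were cultured in N2B27 with 1 μM PD03, 3 μM Chiron and 1x mLIF, so that the ligand of the pathway was supplied throughout. OCT4 in these cells is made from a transgene and not from its own locus, and no IAA-treated control line was analysed here, so that removal of OCT4 and other effects of IAA cannot be told apart in these libraries. The paper gave IAA to a control line with the degron on eGFP. By ChIP-qPCR it found unchanged H3K27ac there at the Klf4 and Prdm14 distal enhancers, which are not at member genes. From qRT-PCR of RNA in that line, it also states that IAA and TIR1-driven degradation caused no fall of pluripotency genes or rise of trophectoderm markers. The libraries are independent immunoprecipitations, and no source used here says that they come from separate cultures, so the p-values measure the spread between these libraries.

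LIF binds a receptor made of LIFR and gp130, the product of Il6st, and the kinases JAK1 and JAK2 that are attached to the receptor then phosphorylate STAT3. Phosphorylated STAT3 enters the nucleus and activates genes that hold mouse embryonic stem cells in self-renewal. SOCS3, itself induced by STAT3, blocks the receptor and its kinases, and Pim1, another STAT3 target, encodes a serine/threonine kinase that favors survival. H3K27ac marks active enhancers and promoters, and OCT4 binds many enhancers in these cells.

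Sequences were read for the members whose peaks hold letters recognized by STAT3 or OCT4. Searched on both strands were TTCCNGGAA, a palindromic STAT3 motif, TTCNNNGAA, the looser STAT core that includes the former, and ATGCAAAT, the octamer of OCT4. Each is shown 5′ to 3′ on the plus strand of GRCm38, except the Socs3 promoter on the minus strand, with the matches named here for each line in capitals. The first 2 lines are from the OCT4-marked peak in an intron of Lifr, where capitals mark the octamers and a STAT core in the central 300 bases and, in the shorter line, the TTCCNGGAA match nearer its start (a further TTCNNNGAA match in that line, ttcacggaa, is left in lower case). The next 2 are the central 300 bases of a peak past the end of Socs3 with a TTCCNGGAA match and of an OCT4-marked peak before its start with a STAT core and an octamer. The last is the RefSeq promoter of Socs3 (GRCm38.p6, 250 bases before to 50 after the start), the only member promoter with a match.
Lifr intron chr15:7115641-7115940: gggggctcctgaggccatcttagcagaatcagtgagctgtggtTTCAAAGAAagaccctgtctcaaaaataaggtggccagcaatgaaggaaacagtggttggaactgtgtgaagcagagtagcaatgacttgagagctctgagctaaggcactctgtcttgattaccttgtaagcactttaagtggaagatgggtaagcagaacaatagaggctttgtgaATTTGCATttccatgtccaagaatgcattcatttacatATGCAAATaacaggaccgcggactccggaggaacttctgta
Lifr intron chr15:7115471-7115571: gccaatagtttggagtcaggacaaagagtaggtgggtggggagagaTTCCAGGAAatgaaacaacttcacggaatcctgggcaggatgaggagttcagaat
Socs3 downstream chr11:117962620-117962919: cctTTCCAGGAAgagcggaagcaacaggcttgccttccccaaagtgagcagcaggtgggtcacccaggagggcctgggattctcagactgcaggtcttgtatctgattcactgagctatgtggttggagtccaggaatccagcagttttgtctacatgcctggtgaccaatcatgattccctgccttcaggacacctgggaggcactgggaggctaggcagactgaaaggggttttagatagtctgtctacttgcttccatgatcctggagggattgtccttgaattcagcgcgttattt
Socs3 upstream chr11:117976036-117976335: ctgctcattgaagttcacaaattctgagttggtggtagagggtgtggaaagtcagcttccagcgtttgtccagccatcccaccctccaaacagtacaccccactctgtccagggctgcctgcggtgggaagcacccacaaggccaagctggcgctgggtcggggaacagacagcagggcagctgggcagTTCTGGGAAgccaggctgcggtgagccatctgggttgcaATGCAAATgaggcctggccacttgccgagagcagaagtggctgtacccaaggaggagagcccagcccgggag
Socs3 promoter chr11:117969317-117969616: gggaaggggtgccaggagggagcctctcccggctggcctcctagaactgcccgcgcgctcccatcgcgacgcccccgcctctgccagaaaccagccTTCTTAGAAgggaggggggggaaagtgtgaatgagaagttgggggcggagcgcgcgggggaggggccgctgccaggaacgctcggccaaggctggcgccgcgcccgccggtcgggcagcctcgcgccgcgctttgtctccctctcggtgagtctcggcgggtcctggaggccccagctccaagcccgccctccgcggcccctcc

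In the central 300 bases, TTCCNGGAA occurred in 1 of the 17 peaks (at Socs3) against 1.25% of all 26457 peaks above the threshold, and TTCNNNGAA in 4 (1 at Lifr, 2 at Socs3 and 1 at Jak2) against 8.38%. The octamer occurred in 2, both OCT4-marked, against 1.13% of all peaks and 2.62% of all OCT4-marked peaks. Over whole peaks TTCCNGGAA was found in 2, the second being the Lifr match shown above, against 3.52% of all peaks. TTCNNNGAA over whole peaks was found in 4 of the 17 (23.5%), close to the 21.4% of all peaks, and the octamer in 2 against 3.01%. All 7 genes had an entry among the RefSeq promoters, and the only match to any of the 3 motifs in them was the TTCTTAGAA of Socs3. Of all 32851 promoters, 8.30% hold TTCNNNGAA. These matches are descriptions of sequence and do not show binding.

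The libraries held 31634480 to 39547452 reads, of which 6.63% to 7.12% fell in peaks in uninduced cells and 4.05% to 5.15% after IAA. All 8 stem cell markers examined had a peak above the threshold, against 2 of 6 trophectoderm markers (Gata3 and Tfap2c). So did 1 of 5 primitive endoderm markers (Gata6) and 1 of 5 markers of later epiblast and mesoderm (Otx2). Cdx2, Eomes, Elf5, Sox17 and T were among the markers without a peak. The peaks were called on uninduced cells, so a marker with H3K27ac only after IAA could not be seen. The median peak above the threshold changed by -0.55 on log2(RPKM + 0.1), the scale of all log2 changes here, which understates the change of low peaks. The changes are therefore also given relative to the median peak, from the same test (limma, Benjamini-Hochberg adjustment over all features) with every library centred on it. The 17 peaks held 15 to 336 reads per library, and at 15 reads counting error alone is 25.8%.

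Of the 17 peaks, 16 were lower after IAA and 0 were higher at a limma adjusted p under 0.05, where 68.2% of all peaks were lower. Their log2 changes ran from -1.06 to -0.48 with a median of -0.76, against -0.55 over all peaks. At 15 of the 17 every IAA library lay below every uninduced library, against 71.2% of all peaks. Relative to the median peak, 14 of the 17 had fallen further, with a median of -0.21. With this centring limma called 0 of the 17 lower or higher at an adjusted p under 0.05, where 1.97% of all peaks were called lower. The smallest adjusted p was 0.100. An unadjusted limma p under 0.05 was found at 5 of the 17. The share of all peaks at that looser cut is not given here, so no comparison is drawn from it. The members thus fell with the bulk of the peaks, and a fall beyond the median peak did not pass the test at any of them. All peaks had been called on the uninduced libraries alone, which favors falls and leaves little room for rises. This limits the counts, group separations and sizes of change given here, for members and for all peaks and genes alike.

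**Figure D1:**
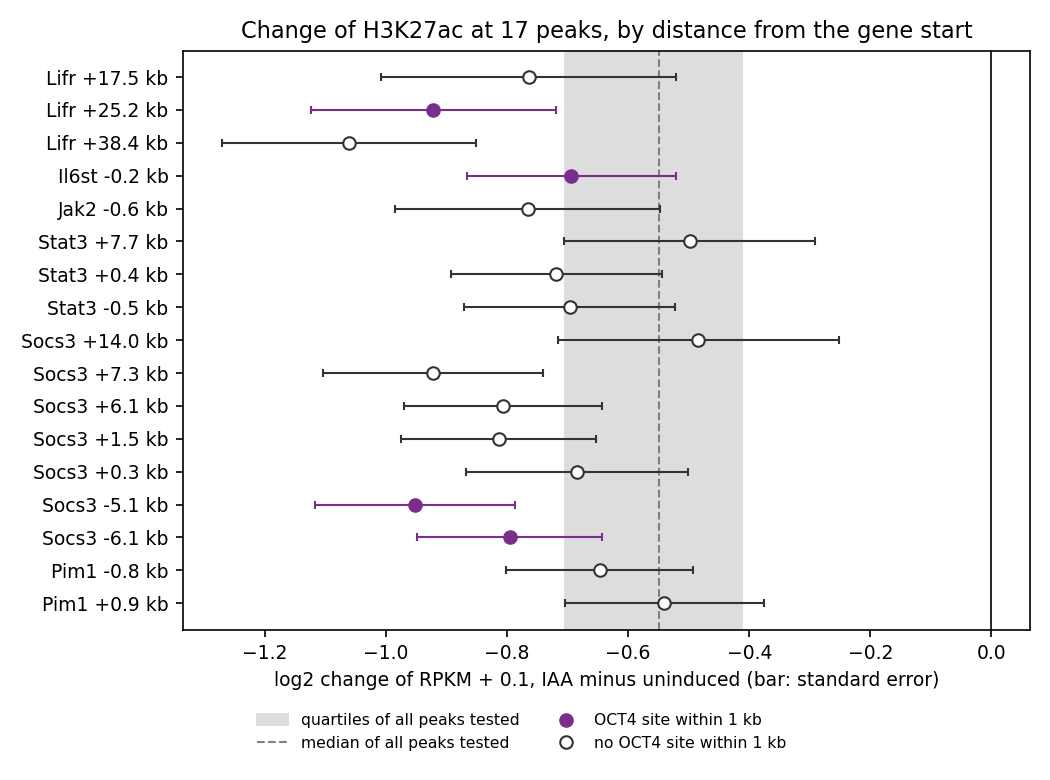
Log2 change of RPKM + 0.1 (x axis, IAA minus uninduced) with its standard error from limma at the 17 peaks (y axis, gene and distance of the peak centre from the annotated gene start, positive in the direction of transcription). Filled points have an OCT4 site within 1 kb, the dashed line is the median of all 26457 peaks (-0.55) and the band spans its quartiles (-0.70 and -0.41); the Lifr peak farthest from the outermost start fell most and the farthest downstream Socs3 peak least.

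H3K27ac at Lifr, the gene of the LIF-binding chain, fell to 51.3% of its uninduced level. Its 3 peaks all lie in introns of the annotated gene, on chromosome 15 from 7107723 to 7108436, from 7114891 to 7116692 and from 7128763 to 7129313. The peak at 7114891, whose sequence is shown above, is the only one of the 3 within 1 kb of an OCT4 site and at 1801 bases the longest of the 17. It lies 12867 bp from the nearest annotated start. It read 2.46, 2.18 and 2.75 RPKM in uninduced replicates 1, 2 and 3 (175, 124 and 192 reads) and 1.35, 1.46 and 0.977 RPKM in IAA replicates 1, 2 and 3 (83, 95 and 61 reads). The lowest uninduced library was well above the highest IAA library, and the log2 change was -0.92 (standard error 0.202, limma adjusted p = 0.00186), or -0.37 relative to the median peak (limma adjusted p = 0.344).

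The peak at 7128763 lies at a start of Lifr, 246 bp away, and ends 9 bases before the RefSeq promoter window that begins at 7129322. It has no OCT4 mark, and it fell most of the 17, from 2.44, 2.36 and 1.83 RPKM in the uninduced libraries to 0.906, 1.16 and 0.944 RPKM in the IAA libraries. These values do not overlap, though the IAA values rest on 17 to 23 reads. The log2 change was -1.06 (standard error 0.210, limma adjusted p = 0.000938), and relative to the median peak it was -0.51 (limma adjusted p = 0.215). The third peak, at 7107723, was the weakest of the 17 in uninduced cells, at 1.52, 1.42 and 1.77 RPKM, and read 1.19, 0.933 and 0.607 RPKM after IAA (log2 change -0.76, standard error 0.243, limma adjusted p = 0.0130). Against the median peak it changed by -0.21 (limma adjusted p = 0.741). No peak lay at the outermost annotated start of Lifr.

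Il6st encodes gp130, the chain that LIFR shares with the receptors for interleukin-6 and related cytokines. Its 1 peak, on chromosome 13 from 112463420 to 112464252, overlaps an exon and UTR of the gene, covers all 300 bases of the RefSeq promoter and is OCT4-marked. It read 3.43, 3.15 and 3.23 RPKM in uninduced cells and 2.33, 1.67 and 2.01 RPKM after IAA. The groups were well separated, and the log2 change, -0.69 (standard error 0.172, limma adjusted p = 0.00384), was -0.14 relative to the median peak (limma adjusted p = 0.743). Within 100 kb of Il6st lie 6 peaks, this one included, of which 4 are OCT4-marked.

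**Figure D2:**
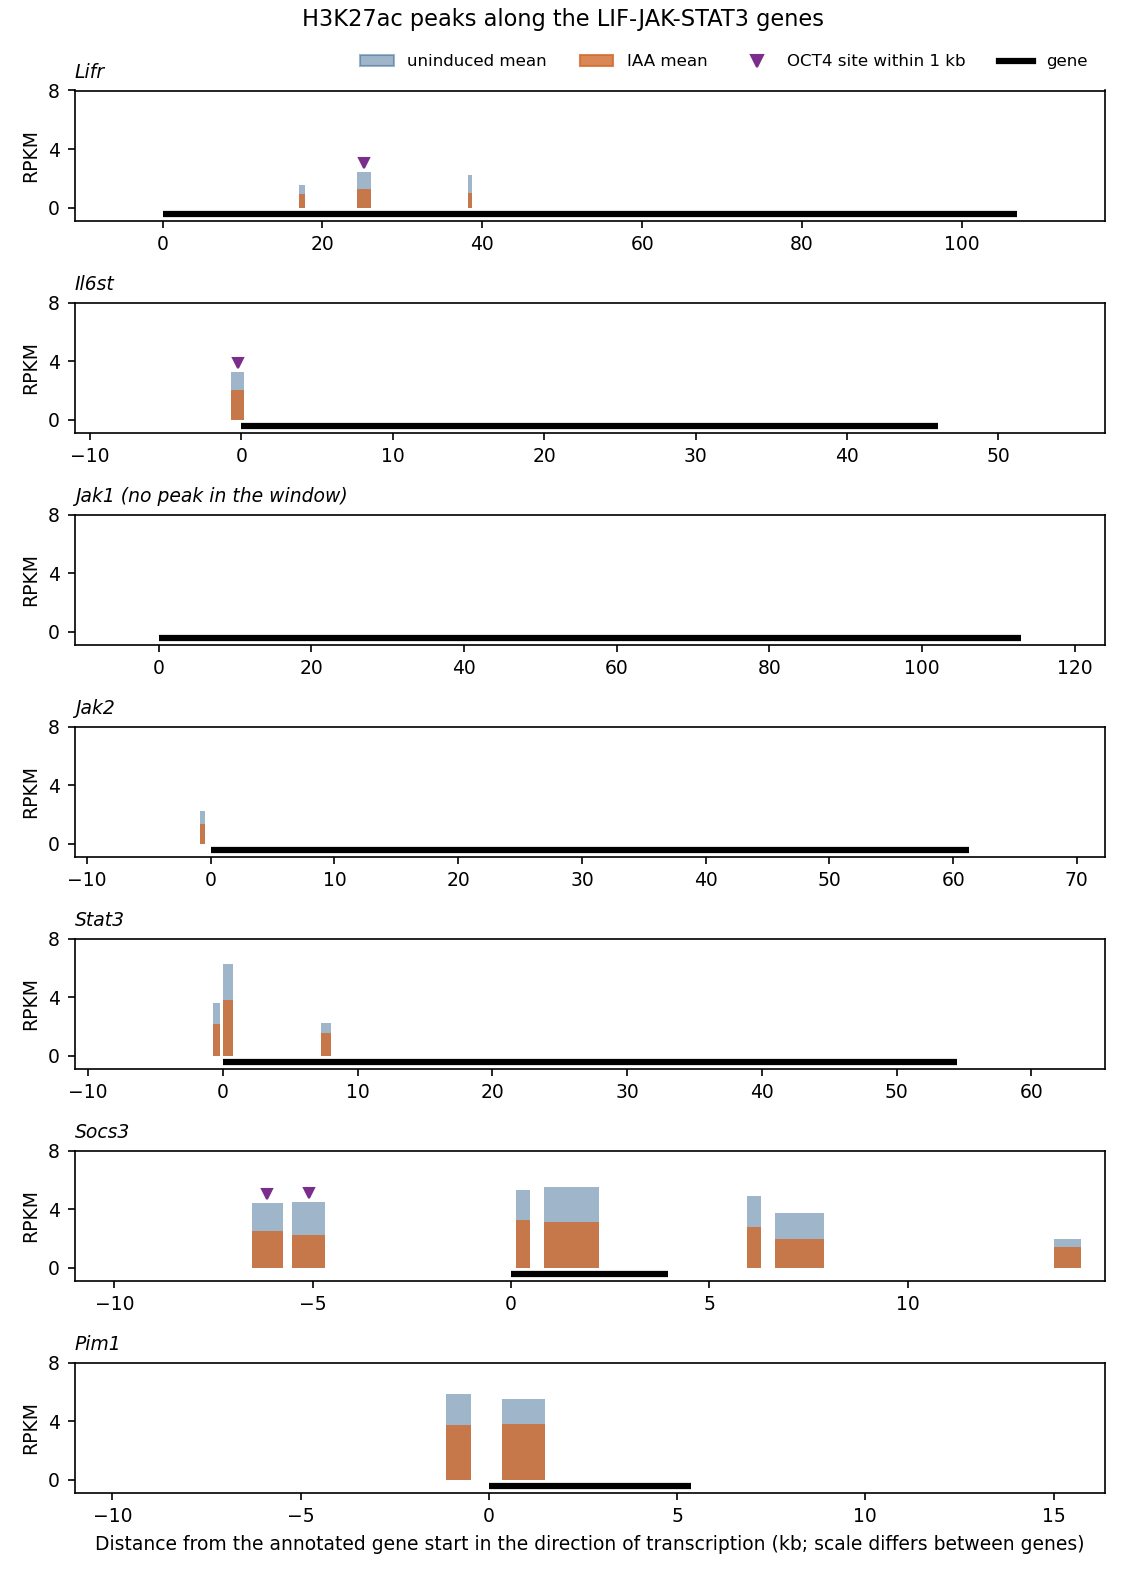
H3K27ac (y axis, mean RPKM of 3 libraries) at each peak along the 7 genes (x axis, distance from the annotated gene start in kb, with a scale of its own for each gene). Blue bars are uninduced and orange bars IAA means, both drawn from 0, triangles mark an OCT4 site within 1 kb, and the black line is the gene; the IAA bar is the lower at all 17 peaks, and Jak1 has none.

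Among the signal transducers, no H3K27ac peak was found at Jak1 (chromosome 4, 101152367 to 101265282), the kinase that gp130 chiefly uses. The nearest peak begins 47472 bp away, consists wholly of soft-masked repeat sequence and read 0.566 RPKM before and 0.776 RPKM after IAA, as means of 3 libraries (log2 change 0.38, standard error 0.272, limma adjusted p = 0.198). Within 100 kb of Jak1 lie 2 further and stronger peaks. That from 101355318 to 101356188 read 3.62 RPKM before and 2.73 RPKM after IAA (log2 change -0.39, limma adjusted p = 0.0505), and that from 101356772 to 101357779 read 3.05 and 2.16 RPKM (log2 change -0.48, limma adjusted p = 0.0191). The peaks were called on uninduced cells, so a missing peak says only that H3K27ac at Jak1 did not reach the caller's limit there. Jak2 had 1 peak, on chromosome 19 from 29250973 to 29251399, which lies outside the gene, 429 bp before its start, and carries no OCT4 mark. It read 2.26, 2.37 and 2.12 RPKM in uninduced cells and 1.86, 1.11 and 1.02 RPKM after IAA. The groups did not overlap, but IAA replicate 1 stood near the uninduced values and the other IAA libraries rest on 17 and 15 reads. The log2 change was -0.77 (standard error 0.219, limma adjusted p = 0.00795), or -0.21 relative to the median peak (limma adjusted p = 0.679).

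Stat3, the transcription factor at the end of the pathway, had 3 peaks on chromosome 11, 0 of them OCT4-marked. The strongest, from 100938812 to 100939567, overlaps the annotated start, an exon and a UTR. It read 6.87, 6.95 and 5.06 RPKM in uninduced cells and 4.66, 3.60 and 3.13 RPKM after IAA, so that the log2 change was -0.72 (standard error 0.175, limma adjusted p = 0.00343). Replicate 3 was the lowest library of both groups at this peak, and the groups did not overlap. The peak from 100939775 to 100940269, 235 bp upstream of the start, had a log2 change of -0.70 (limma adjusted p = 0.00406). Against the median peak these changes were -0.17 (limma adjusted p = 0.605) and -0.14 (limma adjusted p = 0.809). In the intron peak from 100931485 to 100932242 the groups overlapped: uninduced replicate 2, at 1.67 RPKM against 2.51 and 2.49 RPKM in the others, was below IAA replicate 2 at 1.72 RPKM, while the other IAA libraries read 1.24 and 1.64 RPKM. Its log2 change was -0.50 (standard error 0.208, limma adjusted p = 0.0408) and turned to 0.06 relative to the median peak. The call was lost without uninduced replicate 1 (limma adjusted p = 0.162), without uninduced replicate 3 (0.142), without IAA replicate 1 (0.122) and with no threshold on low peaks (0.0704).

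Socs3 held the most peaks of the 7 genes, and as a gene it fell to 56.0% of its uninduced level. All 7 of its peaks lie on chromosome 11, and the gene is on the minus strand from 117966079 to 117970047. An OCT4-marked pair lies upstream, from 117974734 to 117975561 and from 117975792 to 117976581, a further 2 peaks lie over the gene, and 3 lie past its end. The upstream peak at 117974734 fell most of the 7, from 4.80, 4.82 and 3.81 RPKM to 2.41, 2.38 and 1.99 RPKM. The log2 change was -0.95 (standard error 0.165, limma adjusted p = 0.000348), with the groups far apart. Relative to the median peak the change was -0.40, and its limma adjusted p of 0.100 was the smallest among the 17. The other upstream peak, shown above for its octamer, read 4.33, 4.69 and 4.19 RPKM in uninduced cells and 2.49, 2.49 and 2.49 RPKM after IAA (log2 change -0.80, standard error 0.153, limma adjusted p = 0.000772), or -0.24 relative to the median peak (limma adjusted p = 0.381). It also lies in the 10 kb window of the neighboring gene Pgs1.

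Over the Socs3 gene, the peak from 117967822 to 117969227 covers an annotated start and overlaps a UTR. It holds 252 to 336 reads per uninduced library. It read 6.05, 5.89 and 4.63 RPKM in uninduced cells and 3.42, 3.10 and 2.75 RPKM after IAA, without overlap (log2 change -0.81, standard error 0.161, limma adjusted p = 0.000959). Its neighbor from 117969579 to 117969916, which covers 38 of the 300 bases of the promoter shown above, had a log2 change of -0.68 (limma adjusted p = 0.00577). Of the peaks past the end of the gene, that from 117962145 to 117963395 holds the TTCCNGGAA match and has no OCT4 mark. It read 3.78, 3.82 and 3.66 RPKM in uninduced cells and 2.51, 1.88 and 1.52 RPKM after IAA, so that the log2 change was -0.92 (standard error 0.182, limma adjusted p = 0.000922). Thus this unmarked peak changed by nearly as much as the OCT4-marked peak at 117974734. The peak from 117963747 to 117964092 had a log2 change of -0.81 (limma adjusted p = 0.00110). The changes of these 4 peaks relative to the median peak, in the order given, were -0.26, -0.13, -0.37 and -0.25, with limma adjusted p of 0.278, 0.732, 0.182 and 0.426.

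The Socs3 peak farthest from the gene, from 117955687 to 117956365, was the single member peak that did not pass the test. It read 2.16, 2.005 and 1.71 RPKM in uninduced cells and 2.08, 1.06 and 1.15 RPKM after IAA, so that IAA replicate 1 lay among the uninduced libraries (log2 change -0.48, standard error 0.233, limma adjusted p = 0.0686). Without IAA replicate 1 the log2 change was -0.77 (limma adjusted p = 0.00617), and relative to the median peak it was 0.07.

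Pim1 had the highest H3K27ac of the 6 genes and fell least, to 66.9% of its uninduced level. Its 2 peaks, on chromosome 17, lie on either side of the outermost annotated start, and neither is OCT4-marked. The peak from 29489607 to 29490278, upstream of the gene, read 6.10, 5.70 and 5.70 RPKM in uninduced cells and 4.24, 3.72 and 3.18 RPKM after IAA (log2 change -0.65, standard error 0.155, limma adjusted p = 0.00313). The peak from 29491111 to 29492239, over an exon and UTR, read 5.92, 5.63 and 5.06 RPKM and then 4.70, 3.27 and 3.48 RPKM (log2 change -0.54, standard error 0.164, limma adjusted p = 0.0106). IAA replicate 1 was the highest IAA library at both peaks, and at neither did the groups overlap. Relative to the median peak the changes were -0.09 and 0.01. The call at the second peak was lost without uninduced replicate 1 (limma adjusted p = 0.0555) or IAA replicate 2 (0.0509). A start of the annotated gene Gm26885 lies within 1 kb of both peaks, whose H3K27ac cannot be divided between the genes.

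**Figure D3:**
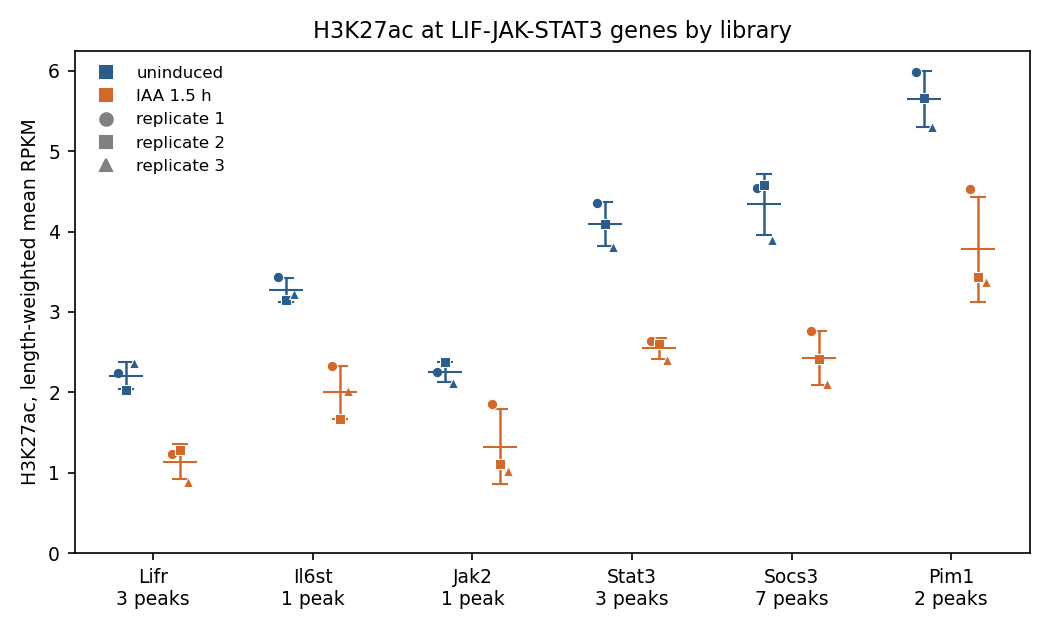
Length-weighted mean H3K27ac (y axis, RPKM) over the peaks of each gene in each library, with the mean and SD of 3 libraries per condition (blue uninduced, orange IAA, marker shape for the replicate number). At all 6 genes the 3 IAA libraries lie below the 3 uninduced libraries, from Lifr (2.21 to 1.13 RPKM) to Pim1 (5.65 to 3.78 RPKM).

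Summarized per gene as the mean RPKM of its peaks weighted by their length, H3K27ac in uninduced cells was 5.65 ± 0.345 RPKM (SD, n = 3) at Pim1, 4.34 ± 0.383 at Socs3, 4.09 ± 0.275 at Stat3, 3.27 ± 0.145 at Il6st, 2.25 ± 0.126 at Jak2 and 2.21 ± 0.165 at Lifr. The libraries of Socs3 and Stat3 overlapped, as did those of Jak2 and Lifr, and the other neighbors in this order did not, while after IAA those of Il6st and Jak2 overlapped as well. After IAA the levels were 3.78 ± 0.652 RPKM (SD, n = 3) at Pim1, 2.43 ± 0.334 at Socs3, 2.55 ± 0.129 at Stat3, 2.001 ± 0.330 at Il6st, 1.33 ± 0.462 at Jak2 and 1.13 ± 0.217 at Lifr. All 6 genes were lower by limma over the 12986 protein-coding genes with a gene mean of 0.5 RPKM or more in either condition. Of these 12986 genes, 86.8% were lower. At all 6 members the groups did not overlap, as at 82.9% of the genes tested. The largest adjusted p was 0.00110, at Pim1.

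The log2 change of the gene mean was -0.92 at Lifr (standard error 0.187, limma adjusted p = 0.000135), a fall larger than that of all but 2.24% of the genes tested. It was -0.82 at Socs3 (standard error 0.149, limma adjusted p = 3.06e-05), -0.77 at Jak2, -0.69 at Il6st, -0.66 at Stat3 and -0.58 at Pim1, against a median of -0.52 over all genes. Relative to the median peak the changes were -0.36 at Lifr, -0.26 at Socs3, -0.21 at Jak2, -0.14 at Il6st, -0.11 at Stat3 and -0.03 at Pim1. With this centring limma called 0 of the 6 at an adjusted p under 0.05 (smallest 0.141, at Socs3), where 0.855% of all genes were called lower. Lifr and Socs3 had an unadjusted limma p under 0.05. The share of all genes at that looser cut is not given here, so no comparison is drawn from it.

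The receptors were compared with the genes downstream library by library, so that a factor shared by all peaks of a library drops out. The mean of Lifr and Il6st minus that of Jak2 and Stat3, on log2(RPKM + 0.1) of the gene means, was -0.17, -0.29 and -0.04 in uninduced replicates 1, 2 and 3 and -0.37, -0.21 and -0.21 in the IAA replicates. The change in this difference was -0.09, within the spread between libraries (SD 0.124 uninduced and 0.0905 IAA, n = 3 each). Against Socs3 and Pim1 the difference was -0.89, -0.98 and -0.70 before and -1.02, -0.93 and -0.94 after IAA, a change of -0.11 with overlapping groups. A steeper fall at the receptors than downstream was therefore not detectable. Within each role the gene values differed too, with the larger log2 change at Lifr, Jak2 and Socs3, and these differences were not tested.

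OCT4-marked peaks numbered 4 of 17 (23.5%), against 17.6% of all peaks above the threshold. All 4 were lower, with log2 changes from -0.95 to -0.69 and a median of -0.86. Of the 13 without the mark 12 were lower, with changes from -1.06 to -0.48 and a median of -0.72. The shares called among all marked and all unmarked peaks are not given here, so nothing is read from these counts. Over all peaks the medians were -0.71 with the mark and -0.52 without. Within libraries, the median of marked minus unmarked member peaks on log2(RPKM + 0.1) was 0.03, 0.01 and -0.16 in uninduced replicates 1, 2 and 3 and -0.08, -0.26 and -0.27 in the IAA replicates. Its change of -0.16 has the sign of that over all peaks (-0.21), but the member values of the conditions overlapped and those over all peaks did not. At the 2 genes with peaks of both kinds, the largest fall was at an unmarked peak in Lifr and at a marked peak in Socs3.

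Of the 17 peaks, 9 (52.9%) had an annotated start of some gene within 1 kb, against 49.6% of all peaks. The 9 promoter peaks were all lower, with a median log2 change of -0.70, as were 7 of the 8 distal peaks, with a median of -0.80. These counts too lack the shares called among all promoter and all distal peaks. Promoter peaks were higher in uninduced cells, with a median of 5.29 RPKM against 3.11 RPKM at distal peaks and 2.44 RPKM over all peaks. The difference of promoter and distal medians within libraries changed by -0.10, opposite in sign to the difference between these median changes, and by 0.04 over all peaks, both with overlapping groups, so that no direction is read from it. The median GC content was 60.7% at promoter and 53.4% at distal member peaks, against 52.9% over all peaks.

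A list of 43 other genes of LIF, cytokine and STAT signaling was examined in the same fit. Of these 37 had peaks and were tested, 33 were lower, 0 were higher and 4 did not pass the test, where 86.8% of all genes were lower, and the median log2 change was -0.55 beside -0.52 over all genes. No peak was found at the ligand genes Clcf1 and Il6, the receptor genes Osmr and Cntfr, Stat5a, or Myc. All 4 ligand genes tested were lower, Lif itself with a log2 change of -0.59 (limma adjusted p = 0.00109) and Osm, which shares peaks with Lif, among them. Both receptor genes tested (Il6ra and Il11ra1) were lower, as were all 6 kinase and STAT genes and all 4 adaptor genes, while 9 of 11 inhibitor genes and 8 of 10 STAT target genes passed, counts to be read against the same 86.8%.

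The 3 largest falls in the list were at genes of transcription factors that act downstream of STAT3 in self-renewal. For these genes, only peaks in the gene body and the flanks added to it were counted. A count of 0 OCT4-marked peaks therefore says nothing of OCT4 sites at more distant enhancers. The paper reports reduced H3K27ac at the Klf4 distal enhancer, and whether the flanks reach that enhancer was not tested. Klf4, with 1 peak and 0 OCT4-marked, fell from 6.08 ± 0.245 to 2.59 ± 0.396 RPKM (SD, n = 3 each; log2 change -1.21, limma adjusted p = 1.22e-08). Tfcp2l1, with 9 peaks of which 5 are OCT4-marked, fell from 4.75 ± 0.234 to 2.47 ± 0.328 RPKM (SD, n = 3 each; log2 change -0.92, limma adjusted p = 3.5e-06). Gbx2, also with 1 peak and 0 OCT4-marked, fell from 1.86 ± 0.263 to 1.06 ± 0.474 RPKM (SD, n = 3 each; log2 change -0.83, limma adjusted p = 0.00157). After centring each library on its median peak, Klf4 (-0.65, limma adjusted p = 0.00496) and Tfcp2l1 (-0.37, limma adjusted p = 0.0345) were the 2 of the 37 genes that were still called lower. Lifr had nearly the log2 change of Tfcp2l1, with a larger standard error (0.187 against 0.148).

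The smallest changes in the list were at Bcl6, a transcriptional repressor (-0.28, limma adjusted p = 0.146), Pias1, which encodes an inhibitor of activated STAT (-0.30, limma adjusted p = 0.115), and Ptpn2, which encodes a phosphatase that acts on JAKs and STATs (-0.31, limma adjusted p = 0.0538). Relative to the median peak these values were 0.28, 0.26 and 0.24. The fourth gene that did not pass was Pim2, a relative of Pim1, whose log2 change of -0.70 had a standard error of 0.695. The values of the first 3 depended on which library was left out. Bcl6 changed by -0.50 without IAA replicate 3 (limma adjusted p = 0.0237) and by -0.00105 without IAA replicate 2 (0.996). Pias1 ran from -0.48 without uninduced replicate 3 (limma adjusted p = 0.0239) to -0.11 without IAA replicate 2 (0.598), was -0.13 without uninduced replicate 2 (0.561), and passed at -0.44 without IAA replicate 1 (0.0411). Ptpn2 ran from -0.40 without IAA replicate 1 (limma adjusted p = 0.0163) to -0.16 without IAA replicate 2 (0.390), and passed without uninduced replicate 3 (0.0483) or IAA replicate 3 (0.0466).

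**Figure D4:**
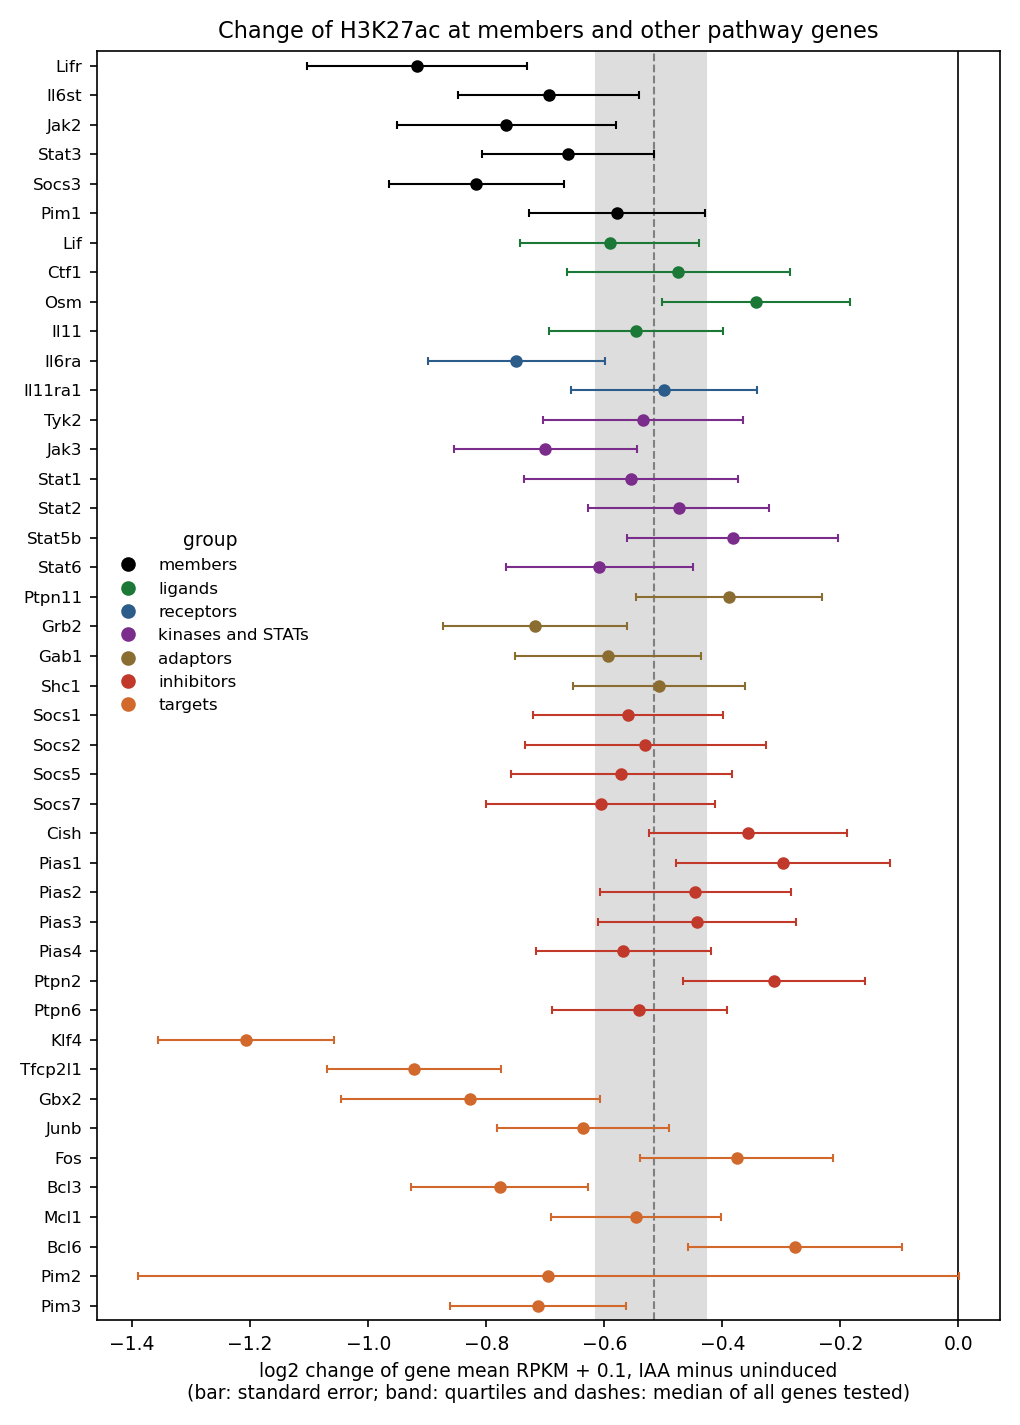
Log2 change of the gene mean of RPKM + 0.1 (x axis, IAA minus uninduced) with its standard error from limma, for the 6 members with peaks (black) and the 37 other pathway genes tested (y axis, colored by role). The dashed line is the median of all 12986 genes (-0.52) and the band its quartiles (-0.61 and -0.43); Klf4 lies farthest to the left and Bcl6 farthest to the right.

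For each member, the protein-coding gene with at least 3 peaks and the most similar levels was found by Euclidean distance over the 6 libraries on log2(RPKM + 0.1). This was Reep1 for Lifr (distance 0.163), Btbd18 for Il6st (0.186), Grik4 for Jak2 (0.169), Rnaseh2a for Stat3 (0.105), Lmnb1 for Socs3 (0.152) and Spag7 for Pim1 (0.123). The distance reflects level and change together over 6 libraries that share a common fall.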

How the data were processed

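The H3K27ac libraries (3 uninduced, 3 IAA) were grouped by the sample labels. The authors aligned reads to GRCm38/mm10 with Bowtie2 2.3.4.3 (also named in the submitters' processing notes), deduplicated them with SAMtools, used MACS2 for peak calling on the pooled uninduced reads and deposited RPKM values made with DiffBind. The deposited value per condition equals the mean of the 3 library values, and a text mark gives peaks that have an OCT4 site no more than 1 kb away in public data on other embryonic stem cells. Versions of MACS2 and DiffBind are not given in the sources used here. Reads were recovered from RPKM, length and the smallest step: 100% of values were whole within 0.01 read. No peak lies past the end of its GRCm38 chromosome, and the number of sample columns not used is 0.

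Peaks with 0.5 RPKM or more in either condition entered limma 3.58.1 (R 4.3.3) as log2(RPKM + 0.1) (trend and robust, Benjamini-Hochberg adjustment, threshold 0.05), and likewise the length-weighted mean RPKM of protein-coding genes, which may share peaks. Count models were not applied to RPKM. The fits were tested on simulated data. Annotation was GENCODE vM21, and sequence came from RefSeq GRCm38.p6. Named in full for each gene were the strongest peak over its start, the peaks of largest and smallest fall, and OCT4-marked peaks among its 3 strongest, with 1 nearest gene by profile and, of the pathway list, the 3 largest and 3 smallest falls and genes without a peak. Other peaks and genes named were chosen after their values were seen. The members and lists were chosen with earlier results of these data known. Alternatives were the pseudocount, the threshold, scaling, replicate block, limma options, windows, weighting and leaving out each library.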

Additional observations from a re-analysis of the deposited data

How the results depend on the processing

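Scaling between libraries decided the calls. With libraries centred on the median peak, or with quantile normalization, 0 of 17 member peaks, 0 of 6 member genes and 2 of 37 other pathway genes were lower by limma, in place of 16, 6 and 33, since both remove a shift common to all peaks. Under centring and quantile normalization the sign turned, among the member peaks and genes, at the Stat3 peak from 100931485 (0.0552 and 0.0741), the Socs3 peak from 117955687 (0.0695 and 0.0778) and the Pim1 peak from 29491111 (0.0133 and 0.0262). Among the pathway genes, 18 of 37 stayed below the median peak with centring, and those named that turned were Ptpn2 (0.24 and 0.22), Pias1 (0.26 and 0.22) and Bcl6 (0.28 and 0.25). With no added flank, 9 peaks were left and all 9 were lower, where 68.2% of all peaks were lower. Over whole peaks, 2 held TTCCNGGAA in place of 1. The receptor differences were not computed without the flank, where Jak2 has no peak. The other genes then changed by -0.92 at Lifr, -0.69 at Il6st, -0.66 at Stat3, -0.79 at Socs3 and -0.54 at Pim1. The other pseudocounts, thresholds, limma options and gene means left the counts of calls within 1.5 times.

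Leaving out each library in turn gave 14 to 16 lower member peaks, 6 lower member genes and 24 to 35 lower pathway genes. The shares of all peaks and genes called in these fits are not given here. The change of receptors minus transducers ran from -0.15 to -0.03, of receptors minus feedback genes from -0.17 to -0.03, of OCT4-marked minus unmarked peaks from -0.23 to -0.13, and of promoter minus distal peaks from -0.27 to -0.01.

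The labels number the replicates 1 to 3 in both groups. Deviations from the group means correlated at -0.01, -0.09 and -0.06 between libraries of the same number, and no library correlated best with that of its own number, so the numbers were not taken to pair the libraries. With the replicate block, 17 of 17 member peaks, 6 member genes and 36 pathway genes were lower. The added member was the Socs3 peak from 117955687 (limma adjusted p = 0.0444), and no other member call changed. Of the pathway genes tested only Pias1 did not pass (0.0620), while Ptpn2 (0.0211), Bcl6 (0.0389) and Pim2 now did. The shares of all peaks and genes called with the block are not given here.

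The weakest member peaks held as few as 15 reads in a library, and differences between peaks of a gene were not tested. The RPKM divides by all reads, and no spike-in was used, so a change common to all peaks cannot be told apart from a change in how many of all reads the peaks take.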
